A study of Mus musculus with 8 samples.

Results

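The 10 genes described here mark cells that make bone and the osteocytes that live inside it: Sp7, Alpl, Bglap, Bglap2, Ibsp, Spp1, Dmp1, Mepe, Phex and Sost. They were chosen by symbol as osteoblast, matrix mineralization and osteocyte genes, and all 10 were found among the 48831 genes counted. The tissue was the vomeronasal epithelium of 8-week-old C57BL/6J mice, an inbred strain with no engineered allele named, and RNA of the whole tissue was sequenced in 8 libraries. The male pool and female pool groups held 2 libraries each, every one from 2 mice pooled and described by the labels as non-flushed. The flushed male and flushed female groups held 2 libraries each, every one from the flushed tissue of 1 mouse. A protocol text attached to all 8 libraries states that blood was washed out with heparin, so the preparation was taken from the description of each sample. Every pool is a non-flushed library and every flushed library is a single mouse, and the read files of pools and flushed libraries lie in folders with different dates. Flushing, pooling and folder date therefore cannot be told apart, and the comparison is called one of preparations below. Fewer cells of a type and less RNA per cell cannot be told apart in whole tissue either.

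Bone is built by osteoblasts, which secrete collagen and then a set of acidic proteins and enzymes that govern how mineral is laid down. Some osteoblasts become buried in the matrix and turn into osteocytes, which regulate mineral, phosphate balance and further bone formation through secreted proteins. The vomeronasal organ of rodents sits in a bony capsule at the base of the nasal septum, so a dissection of its epithelium can carry bone.

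All 10 genes were detected in all 8 libraries, and the lowest count of any of them was 166, for Sost. The library totals were 18763557 to 22096792 in the pools and 22101913 to 24965088 in the flushed libraries. Counting error alone at the lowest count of a gene ran from 0.86% for Spp1 to 7.76% for Sost. Of the other markers, Omp of mature sensory neurons had 7024 to 10324 counts per library, while Trpc2, the channel of vomeronasal neurons, was listed at 0 in every one; this 0 is not read as absence, and its cause was not tested. Dspp, the dentin gene next to Dmp1, had at most 2 counts and the enamel gene Amelx was listed at 0 throughout. Levels below are CPM, counts scaled to a common library size with TMM factors that allow for library composition, and they are always given in the order female pools 1 and 2, male pools 1 and 2, flushed females 2 and 3, flushed males 1 and 3.

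Between preparations, 6 of the 10 genes were lower in the flushed libraries and none was higher. Dmp1 fell 3.36-fold, Bglap 2.01-fold, Alpl 1.97-fold, Bglap2 1.89-fold, Mepe 1.72-fold and Sp7 1.36-fold (adjusted p under 0.05, edgeR quasi-likelihood test). Ibsp, Spp1, Phex and Sost did not pass the test. Of all 20601 genes tested, 22.9% were called lower and 22.6% higher, 45.5% in all. The median log2 difference, flushed minus pool, was -0.61 over the 10 genes and -0.02 over all genes tested. For each of the 6 genes the 4 flushed libraries lay below the 4 pools, as they did for 20.4% of all genes tested, while 21.3% had the reverse order. For the other 4 genes the groups overlapped. Within females 5 of the 10 genes were called lower and none higher, against 12.6% and 14.2% of all genes, and within males 6 were lower and none higher, against 11.1% and 13.6%. The split of calls over all genes depended on scaling: there were 4721 lower and 4656 higher calls with TMM, and 2862 lower and 6070 higher calls with plain library sizes.

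**Figure D1:**
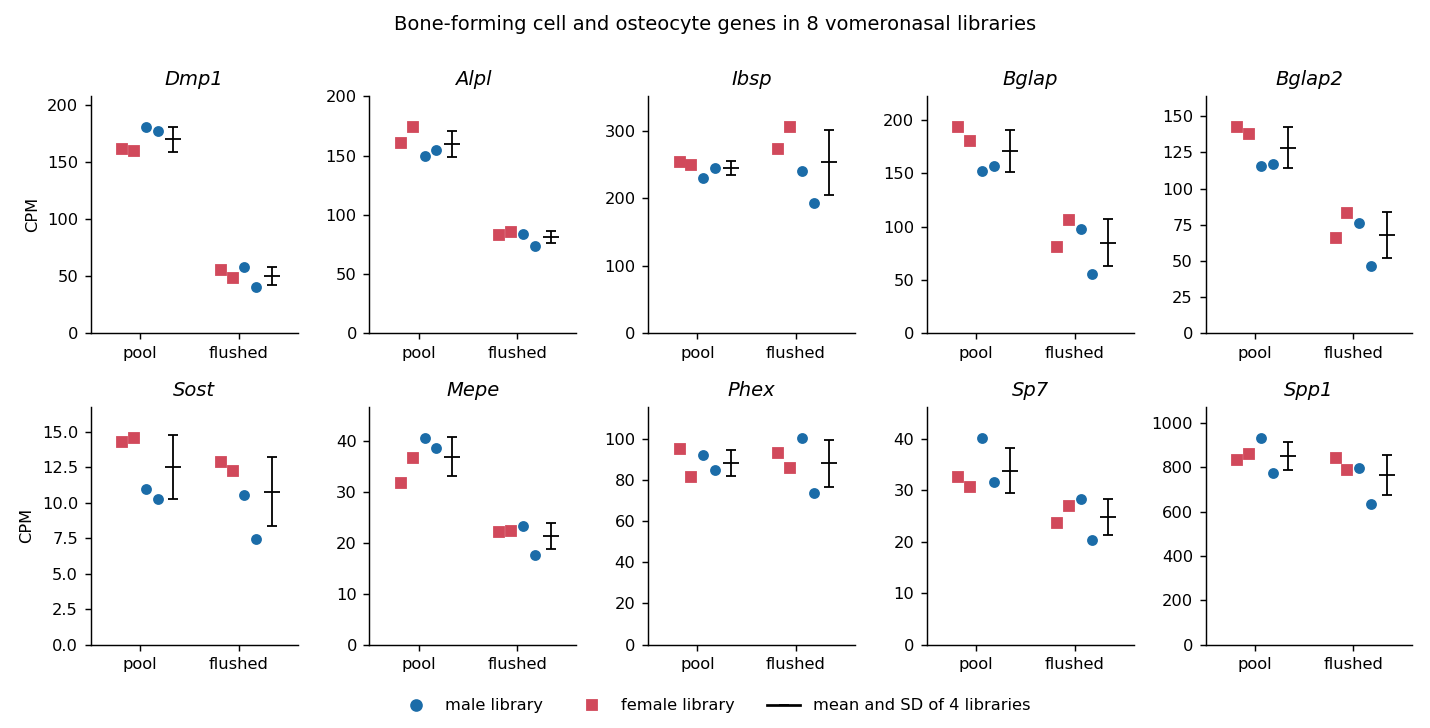
CPM (vertical axes, from 0) of each gene in the 8 libraries, split by preparation, with circles for male and squares for female libraries and bars for the mean and SD of 4 libraries. The flushed libraries lie below the pools for Dmp1, Alpl, Bglap, Bglap2, Mepe and Sp7, and the groups overlap for Ibsp, Sost, Phex and Spp1.

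Sp7 encodes osterix, a zinc-finger transcription factor needed for osteoblast differentiation, and lies on chromosome 15. Sp7 stood at 32.6, 30.7, 40.2 and 31.6 CPM in the pools and at 23.6, 26.8, 28.2 and 20.4 CPM in the flushed libraries. The highest flushed library, a male, came near the lowest pool. Sp7 fell by 0.44 on the log2 scale (SE 0.12, edgeR adjusted p = 0.0103). Within males the difference was -0.56 (edgeR adjusted p = 0.0342) and within females -0.33, which did not pass (edgeR adjusted p = 0.163). The call was lost when libraries were scaled by sensory neuron markers (-0.23, edgeR adjusted p = 0.245).

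Alpl encodes the tissue-nonspecific alkaline phosphatase, which removes pyrophosphate and so frees mineral to form; it lies on chromosome 4. Alpl stood at 161, 174, 150 and 155 CPM in the pools and at 82.8, 85.4, 83.5 and 73.5 CPM in the flushed libraries. The spread within each preparation was small beside the gap between them. The log2 difference of Alpl was -0.98 (SE 0.06, edgeR adjusted p = 1.44e-05), with -0.99 in females and -0.96 in males.

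Bglap and Bglap2 encode osteocalcin, a small vitamin K-dependent protein of mineralized matrix, and lie 4.8 kb apart on the minus strand of chromosome 3. Their coding sequences, each of 285 bases from ATG to the last codon before the stop, are printed because they decide how far the counts of the genes can be told apart. They were assembled from GENCODE M21 transcripts, and capitals mark the 4 bases that differ.
Bglap: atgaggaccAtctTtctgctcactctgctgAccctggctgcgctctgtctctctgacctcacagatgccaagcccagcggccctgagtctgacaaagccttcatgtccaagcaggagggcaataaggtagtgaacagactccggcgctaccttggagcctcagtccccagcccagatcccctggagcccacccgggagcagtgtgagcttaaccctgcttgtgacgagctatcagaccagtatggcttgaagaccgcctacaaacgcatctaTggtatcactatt
Bglap2: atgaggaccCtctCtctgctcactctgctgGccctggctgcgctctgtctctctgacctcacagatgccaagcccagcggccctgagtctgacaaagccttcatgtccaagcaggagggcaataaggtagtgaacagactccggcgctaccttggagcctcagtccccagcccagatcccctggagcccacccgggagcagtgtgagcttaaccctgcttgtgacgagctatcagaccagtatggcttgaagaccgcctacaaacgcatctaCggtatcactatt
The coding sequences were 98.6% identical, and 56.3% of the 100-base windows of the Bglap transcript, the length of a read, also occurred in Bglap2. No such window of Bglap occurred in Bglap3, the neighbouring osteocalcin-related gene, but 5.38% of those of Bglap2 did. A read that fitted both genes was divided between them by the counting, and the count of Bglap was not whole in 8 libraries and that of Bglap2 in 6.

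Bglap stood at 194, 181, 153 and 157 CPM in the pools and at 80.6, 106, 98.1 and 55.8 CPM in the flushed libraries. Bglap2 stood at 143, 138, 115 and 117 CPM in the pools and at 65.9, 82.9, 76.3 and 46.6 CPM in the flushed libraries. Both genes were higher in female than in male pools, and both had flushed male 3 as their lowest library. The log2 difference was -1.01 for Bglap (SE 0.15, edgeR adjusted p = 0.000481) and -0.92 for Bglap2 (SE 0.13, edgeR adjusted p = 0.000379). The 2 values are not separate evidence, since the genes share reads, and Bglap had 1.20 to 1.36 reads for each Bglap2 read in every library. Summed to 1 feature, the pair fell by 0.97 on the log2 scale (edgeR adjusted p = 0.000479). On its own, Bglap3 stood at -0.24 and did not pass (edgeR adjusted p = 0.0885), and the 3 genes summed gave -0.76 (edgeR adjusted p = 0.000125).

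Dmp1, Ibsp, Mepe and Spp1 encode acidic phosphoproteins of bone matrix, and lie in that order on the plus strand of chromosome 5 (GRCm38). Dmp1 spans 104202613 to 104214102, Ibsp starts 85.1 kb further on, Mepe follows Ibsp by 13.9 kb and Spp1 follows Mepe by 96.5 kb. These neighbours did not move alike: with TMM scaling Dmp1 and Mepe fell, and Ibsp and Spp1 did not pass the test.

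Dmp1, the dentin matrix acidic phosphoprotein made chiefly by osteocytes, nucleates mineral and restrains the phosphate hormone Fgf23. Dmp1 stood at 162, 160, 181 and 178 CPM in the pools and at 55.3, 48.1, 57.8 and 40.7 CPM in the flushed libraries. Every pool was above every flushed library by a wide margin, and in the pools both males lay above both females. The log2 difference of Dmp1 was -1.75 (SE 0.10, 95% confidence interval -1.98 to -1.52, edgeR adjusted p = 1.44e-05). The difference was -1.64 within females (SE 0.15) and -1.86 within males (SE 0.15).

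Ibsp, bone sialoprotein, is an integrin-binding protein that promotes nucleation of mineral. Ibsp stood at 254, 250, 231 and 245 CPM in the pools and at 273, 307, 241 and 194 CPM in the flushed libraries. The flushed libraries reached both above and below the pools, with females high and flushed male 3 low. The log2 difference of Ibsp was 0.04 (95% confidence interval -0.17 to 0.24, edgeR adjusted p = 0.772). There were 1.27 to 1.57 Ibsp reads for each Dmp1 read in the pools and 4.16 to 6.38 in the flushed libraries.

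Mepe, the matrix extracellular phosphoglycoprotein of osteocytes, releases a peptide that inhibits mineralization. Mepe stood at 31.7, 36.7, 40.7 and 38.7 CPM in the pools and at 22.2, 22.3, 23.4 and 17.7 CPM in the flushed libraries. The groups did not overlap. Mepe fell by 0.78 on the log2 scale (SE 0.10, edgeR adjusted p = 0.00025), with -0.62 in females and -0.95 in males.

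Spp1, osteopontin, binds mineral and integrins and is also made by activated macrophages and some epithelia. Spp1 stood at 835, 860, 933 and 776 CPM in the pools and at 842, 789, 799 and 635 CPM in the flushed libraries. All but flushed male 3 lay within the range of the pools. The log2 difference of Spp1 was -0.15 (95% confidence interval -0.35 to 0.05, edgeR adjusted p = 0.189).

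Phex encodes a membrane endopeptidase of osteoblasts and osteocytes whose loss causes X-linked hypophosphatemia, and lies on chromosome X. Phex stood at 95, 81.5, 92.3 and 84.7 CPM in the pools and at 92.9, 85.6, 100 and 73.5 CPM in the flushed libraries. The flushed values enclosed those of the pools. The log2 difference of Phex was -0.005 (95% confidence interval -0.21 to 0.20, edgeR adjusted p = 0.972).

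Sost encodes sclerostin, an osteocyte protein that blocks Wnt signalling and restrains bone formation, and lies on chromosome 11. Sost stood at 14.3, 14.6, 11 and 10.2 CPM in the pools and at 12.9, 12.2, 10.5 and 7.47 CPM in the flushed libraries. Female libraries were the higher ones in both preparations. The log2 difference between preparations was -0.22 (95% confidence interval -0.45 to 0.02, edgeR adjusted p = 0.117). Without flushed male 1 it was -0.32 and passed (edgeR adjusted p = 0.0298).

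**Figure D2:**
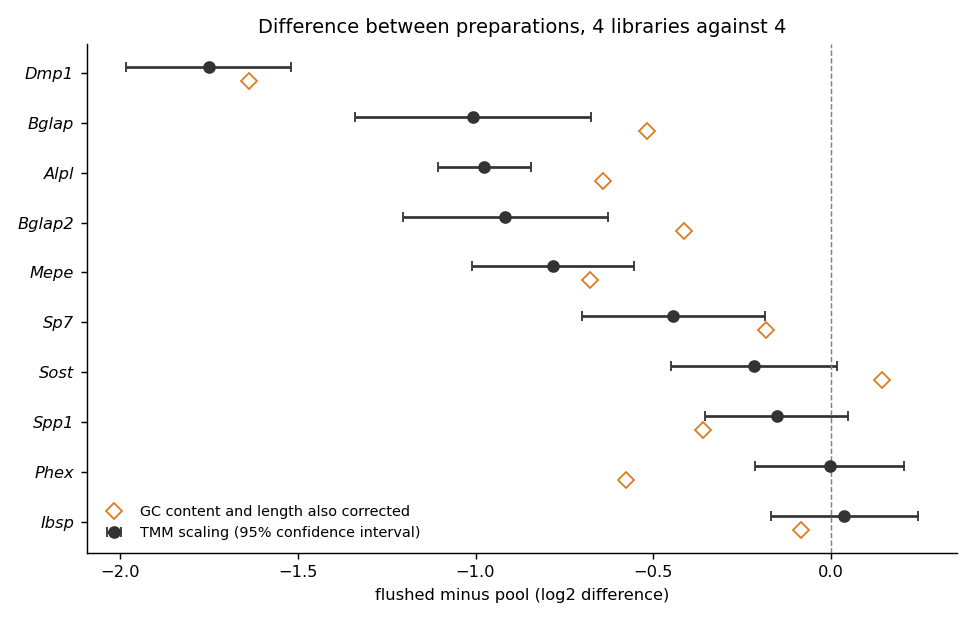
Log2 difference between preparations, flushed minus pool, for each gene, with filled points and 95% confidence intervals for the fit with TMM scaling and open diamonds for the fit that also corrected GC content and length. Dmp1 lies lowest under both, at -1.75 and -1.64, and Sost and Ibsp lie on opposite sides of 0 in the 2 fits.

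Over all genes the difference between preparations followed base composition, and this touches each of the values above. Across 16397 genes with a mean of at least 1 on the log2 CPM scale, the log2 difference and the GC content of the longest transcript had r = -0.66 and rho = -0.73. These genes come from the same 8 libraries and are not independent. These genes were divided by GC content into 4 sets of equal size. In the set with the lowest GC content, 30.8 to 44.2%, the median log2 difference was 0.42, and 2% of genes were lower and 66.4% higher. In the set with the highest GC content, 54.0 to 73.7%, the median was -0.34, and 60.7% of genes were lower and 1.12% higher. What sets this relation was not tested.

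The 10 genes lay on both sides of this range. Alpl, Bglap, Bglap2, Sp7 and Sost had GC contents of 54.4 to 57.2%, in the highest set. Dmp1 had 50.6% and Mepe 49.5%, in a set where 33.7% of genes were lower and the median was -0.15. Ibsp had 45.2%, while Spp1 with 43.3% and Phex with 39.6% lay in the lowest set, where most genes were higher. When GC content and length were corrected in each library before the edgeR test, 2246 genes were lower and 2267 higher, 11% and 11.1% of those tested. Under this correction 7 of the 10 genes were lower and none was higher. Dmp1 remained lowest, at -1.64 on the log2 scale (edgeR adjusted p = 5.61e-05), and Mepe stood at -0.68 (edgeR adjusted p = 0.00162). Alpl stood at -0.64 (edgeR adjusted p = 0.000134), Bglap at -0.52 (edgeR adjusted p = 0.021) and Bglap2 at -0.41 (edgeR adjusted p = 0.0294), each smaller by more than 1.5 times than without it. Sp7 no longer passed (-0.18, edgeR adjusted p = 0.297). Phex passed as lower at -0.58 (edgeR adjusted p = 0.00141) and Spp1 at -0.36 (edgeR adjusted p = 0.00973). Ibsp did not pass (-0.09, edgeR adjusted p = 0.478), nor did Sost (0.14, edgeR adjusted p = 0.358).

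**Figure D3:**
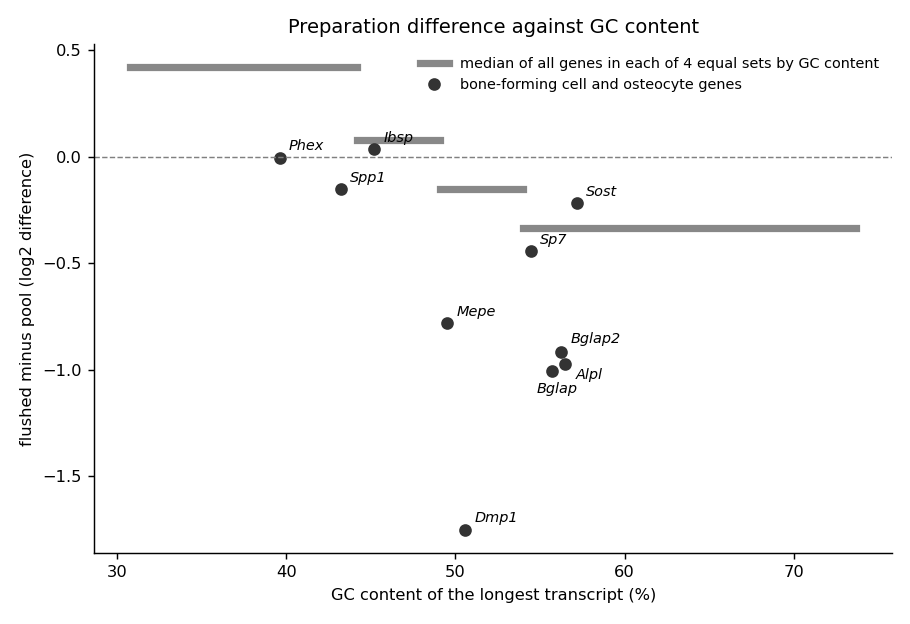
Log2 difference between preparations (vertical axis) against the GC content of the longest transcript in percent (horizontal axis), with a point for each of the 10 genes and a grey bar for the median of all genes in each of the 4 sets by GC content. The grey bars step down from 0.42 to -0.34, and all of the 10 genes but Sost lie below the bar of their set, with Dmp1 lowest at -1.75.

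The 10 genes also differed in level. Per length, as RPKM (CPM divided by the exon length in kilobases), the mean of 8 libraries was 491 for Spp1, the highest. Bglap2 with 208, Bglap with 207 and Ibsp with 120 came next, and their ranges over libraries overlapped. Dmp1 followed with a mean RPKM of 39.9, Alpl with 29.9, Mepe with 17.4, Phex with 14.0, Sp7 with 10.1 and Sost with 5.63. Over all 8 libraries neighbours in this last run overlapped in range, whereas Spp1 did not overlap Bglap2 and Ibsp did not overlap Dmp1. These ranges mix preparations. In the pools Bglap (RPKM 247 to 314) and Bglap2 (245 to 303) lay wholly above Ibsp (112 to 123). In the flushed libraries Bglap and Bglap2 overlapped Ibsp. In the pools Dmp1 (RPKM 57.7 to 65.5) lay wholly above Alpl (37.1 to 43.3) and Mepe (18.9 to 24.2) wholly above Phex (12.9 to 15.1). In the flushed libraries both pairs overlapped, and the mean RPKM was 18.3 for Dmp1 against 20.2 for Alpl and 12.7 for Mepe against 14.0 for Phex. In the pools alone the mean RPKM of Dmp1 was 61.5 ± 3.95 (SD, n = 4), and in the flushed libraries it was 18.3 ± 2.80 (SD, n = 4).

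The promoters of Dmp1 and Spp1 are printed because these matrix genes share a chromosome stretch and differed in how they moved, and because they were the promoters among 11 from 8 of the 10 genes that held a match to the Runx motif AACCACA. Runx2, the master transcription factor of osteoblasts, binds sequences of this kind. Each line gives the 250 bases before a RefSeq start site (GRCm38.p6), on the plus strand, with the match in capitals.
Dmp1: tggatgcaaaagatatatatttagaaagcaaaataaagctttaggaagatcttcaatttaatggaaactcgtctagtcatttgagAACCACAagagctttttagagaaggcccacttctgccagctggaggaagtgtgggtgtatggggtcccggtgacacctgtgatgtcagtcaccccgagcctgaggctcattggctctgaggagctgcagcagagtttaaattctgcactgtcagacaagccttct
Spp1: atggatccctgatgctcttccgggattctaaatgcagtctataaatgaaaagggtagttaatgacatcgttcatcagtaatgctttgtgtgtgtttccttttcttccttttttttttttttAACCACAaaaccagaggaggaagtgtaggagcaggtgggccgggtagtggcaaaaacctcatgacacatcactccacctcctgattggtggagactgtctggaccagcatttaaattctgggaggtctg
The Dmp1 window is chr5:104202367-104202616, before the second of its RefSeq starts, and its match begins 165 bases before the start. The Spp1 window is chr5:104434861-104435110, before the first of its RefSeq starts, and its match begins 129 bases before the start. Searching both strands, 4.4% of 32851 promoters of this length held the motif. Bglap2 and Sp7 had no promoter entry, so neither was searched. The TATAAA motif occurred in 5 of the 11 promoters against 12.4% of all, and the GC box GGGCGG in 1 of 11 against 32.7%. A match describes letters and not binding. Both Dmp1, lower with and without the GC and length correction, and Spp1, lower only with it, held one.

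The extent of the difference was also read against the chief collagen of bone in the same library, which needs no library size. Col1a1, made by osteoblasts and fibroblasts alike, fell by 1.30 on the log2 scale (SE 0.09, edgeR adjusted p = 1.74e-05). Dmp1 had 10.9, 10.7, 9.40 and 8.47 reads per 1000 Col1a1 reads in the pools and 8.20, 7.70, 6.55 and 6.30 in the flushed libraries. All flushed values were below all pools, a 1.37-fold fall beyond that of Col1a1 (exact permutation test, two-sided, p = 0.0286, the smallest that 4 libraries against 4 allow). Only 0.0728% of all genes tested, 15 of 20601, lay below their pools in every flushed library on this ratio. Ibsp had 17.0, 16.8, 12.0 and 11.7 reads per 1000 Col1a1 reads in the pools and 40.5, 49.1, 27.3 and 30.0 in the flushed libraries, 2.53-fold more (exact permutation p = 0.0286). Phex was 2.45-fold, Spp1 2.22-fold, Sost 2.11-fold, Sp7 1.81-fold and Mepe 1.43-fold higher on the same ratio, each with no overlap (exact permutation p = 0.0286). A higher ratio is what most genes had, since 85.9% of all genes tested were above their pools in every flushed library. Alpl, Bglap and Bglap2 overlapped and did not pass (exact permutation p = 0.171, 0.457 and 0.229). These were 10 ratios, and their p-values are not adjusted. Col1a1 has a GC content of 58.9%, above that of all 10 genes.

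**Figure D4:**
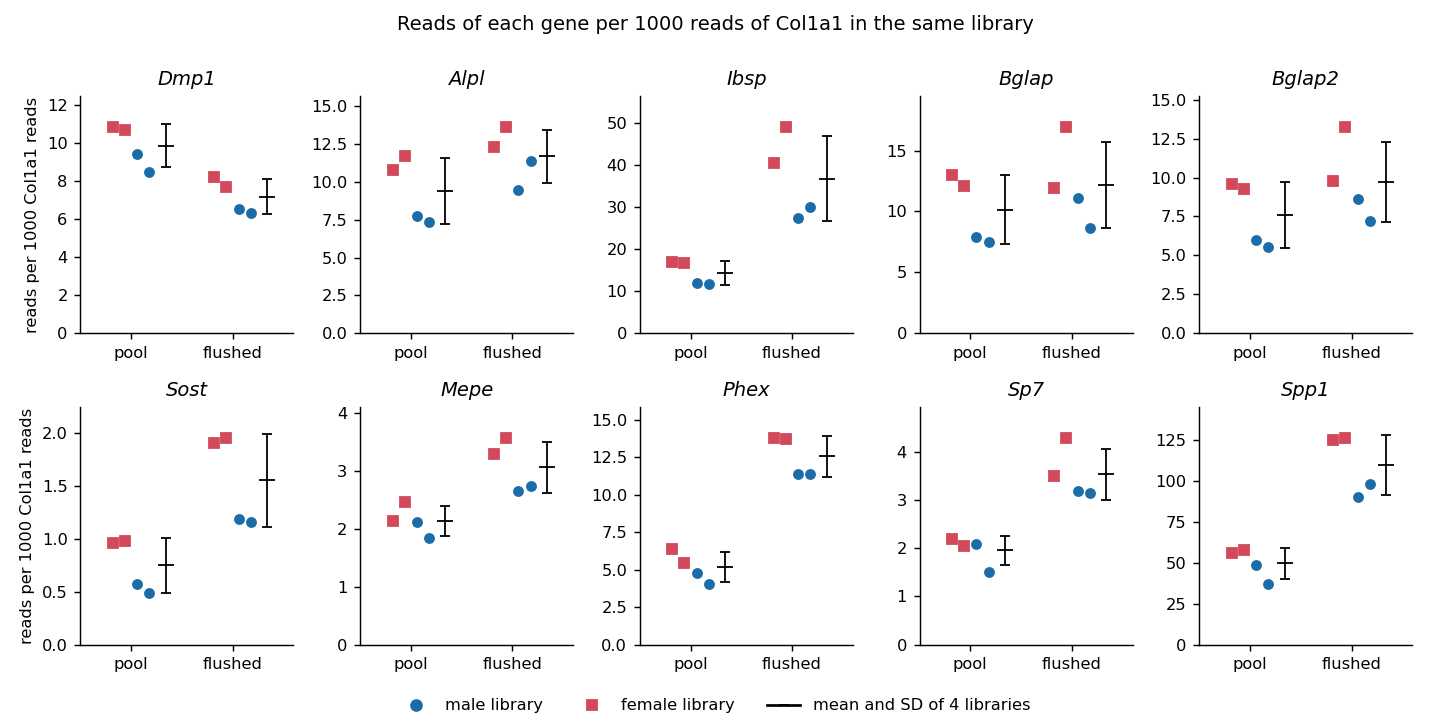
Reads of each gene per 1000 Col1a1 reads (vertical axes, from 0) in the 8 libraries by preparation, with circles for male and squares for female libraries and bars for the mean and SD of 4 libraries. Dmp1 alone of the 10 genes lies lower in all flushed libraries, and Ibsp lies at 11.7 to 17.0 in the pools and at 27.3 to 49.1 in the flushed libraries.

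None of the 10 genes differed by sex, against 0.116% of all genes tested (24 genes, edgeR), and DESeq2 and limma-voom called none either. Unadjusted, 2 of the 10 had p under 0.05 in the edgeR fit. Sost was one, with a log2 difference, male minus female, of -0.46 (SE 0.11, edgeR adjusted p = 0.305), and Ibsp the other, with -0.25 (SE 0.09, edgeR adjusted p = 0.536). With no filter on low counts, 4 of the 10 were called lower in males by edgeR, against 2.41% of the genes then tested. They were Sost (adjusted p = 0.00248), Bglap2 (adjusted p = 0.00533), Bglap (adjusted p = 0.00658) and Ibsp (adjusted p = 0.0258). None of the 10 had a preparation difference that depended on sex in edgeR's interaction test, adjusted or unadjusted, nor in DESeq2, against 0.0485% of all genes.

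Flushed male 3 was the lowest of the 4 flushed libraries for 10 of the 10 genes. Its mean log2 CPM over the 10 genes was 5.76, against 6.18 to 6.24 in the other flushed libraries and 6.66 to 6.77 in the pools. The share of all genes with their lowest flushed value in flushed male 3 was not counted. Among flushed libraries it was also lowest for the summed osteoclast genes (795 CPM against 886 to 963). It was not lowest for the summed cartilage genes (491 CPM against 486 to 570), but single cartilage genes went both ways. Flushed male 3 was lowest for Col11a1 (172 CPM against 188 to 225) and Col11a2 (158 against 207 to 247). It was highest for Acan (38.6 CPM against 17.5 to 23.3) and Col10a1 (23.9 against 1.30 to 2.77). With single libraries left out in turn, flushed male 3 among them, the log2 difference between preparations of Dmp1 ran from -1.83 to -1.64. It ran from -1.02 to -0.94 for Alpl, -1.19 to -0.87 for Bglap and -1.07 to -0.79 for Bglap2. For Mepe it ran from -0.87 to -0.68 and for Sp7 from -0.52 to -0.33. The ranges of Ibsp and Phex took in 0. Once the mean of each sex and preparation was subtracted, Bglap and Bglap2 had r = 0.999 over 8 libraries, Ibsp and Bglap r = 0.98, and Dmp1 and Sost r = 0.96. Only 4 deviations are free in such a correlation, and they share library and depth, so the values are descriptive.

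Among 14239 other genes with a mean log2 CPM of at least 1, leaving out predicted, clone-named and unnamed genes, the 5 most like the mean of the 10 genes over 8 libraries were Bap1, Psme2, Abhd4, Tmem119 and Smpd3, with r of 0.98 to 0.99. After the group means were subtracted, the 5 most like it were Zfp764, Ikbip, Tm9sf3, C1rb and Dars, with r of 0.9955 to 0.9968. The mean of the bone genes then stood at 0.231 in flushed male 1 and -0.231 in flushed male 3. In every other library it was within 0.037 of 0, so these r rest chiefly on the flushed male pair. Of the genes listed as most like the mean, Smpd3 (-0.74) and Tmem119 (-0.69) had the largest preparation differences on the log2 scale, and Tm9sf3 was higher in flushed libraries (0.53).

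Other genes of the same pathway were taken from lists. Of 18 osteoblast regulators, 9 fell and none rose, with a median log2 difference of -0.29. Among them were Lrp5, a Wnt co-receptor (-0.43, edgeR adjusted p = 0.000231), and Pth1r, the parathyroid hormone receptor (-0.47, edgeR adjusted p = 0.000507). Of 16 genes of bone matrix and collagen processing, 12 fell and 3 rose, with a median of -0.66. They include Fkbp10, a collagen chaperone, at -0.89 and Ogn, the proteoglycan osteoglycin, which rose by 1.05. With GC content and length corrected, 4 of 18 regulators fell and none rose, and 10 of 16 matrix genes fell and 2 rose.

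Of 9 genes of mineralization and phosphate handling, 4 fell and 1 rose. Phospho1, the phosphatase that starts mineral inside matrix vesicles, fell by 2.19 on the log2 scale from 1.54 ± 0.48 to 0.332 ± 0.046 CPM (SD, n = 4). Phospho1 had only 21 to 39 counts in the pools and 7 to 9 in the flushed libraries. Its GC content was 60.6%, in the highest of the 4 sets by GC content. Fgf23, the phosphate hormone of osteocytes, fell by 1.18, Fam20c, the kinase of secreted phosphoproteins, by 0.81, and Smpd3, a sphingomyelinase of mineralizing cells, by 0.74. Slc20a1, a phosphate transporter of many cell types, rose by 0.51. Of 10 further osteocyte genes 4 fell and 2 rose. Those with the smallest p all fell: Mmp14, a membrane metalloproteinase (-0.73), Irx5 (-0.70) and the Wnt antagonist Dkk1 (-0.78). The 2 that rose were Mmp13 (0.35, edgeR adjusted p = 0.0072) and Ptprz1 (0.27, edgeR adjusted p = 0.0304). The summed level of this list was 618 to 709 CPM in the pools and 618 to 717 in the flushed libraries. This sum rests largely on Mmp13, which rose, with 272 to 332 CPM in the pools and 341 to 412 in the flushed libraries. Mmp14, which fell, had 137 to 148 and 79.1 to 90.8 CPM. The near-equal sums therefore do not show that the other genes of the list stayed level. With the GC and length correction, 5 of 9 mineralization genes fell and 2 rose, and 4 of 10 osteocyte genes fell and none rose.

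Markers of other cells in the dissected tissue were counted in the same way, to be read against 22.9% lower and 22.6% higher over all genes. Osteoclast genes, from the cells that resorb bone, fell in 6 of 15 and rose in 1, and their summed level was 1134 to 1261 CPM in the pools and 795 to 963 in the flushed libraries. Cartilage genes fell in 8 of 16 and rose in 1 (1036 to 1154 CPM against 486 to 570), and fibroblast genes fell in 5 of 12 and rose in 2 (7640 to 10469 CPM against 4597 to 5737). These 2 sums rest mostly on collagens. Col11a1 and Col11a2 made up most of the cartilage sum in the pools. Col3a1 had 5102 to 7394 CPM in the pools and 2640 to 3613 in the flushed libraries. Dcn, also of the fibroblast list, had 315 to 383 CPM in the pools and 417 to 447 in the flushed libraries. All 7 erythroid genes tested fell, with a median of -2.74 (1646 to 2053 CPM against 105 to 621), as did 9 of 10 genes of marrow granulocyte precursors, with a median of -1.66. Of the granulocyte list only Camp had all flushed libraries below all pools. In males alone its smallest adjusted p was 0.0519, for Camp (edgeR), and no interaction with sex was called. Ltf, counted among the 9, had 156146 to 257762 counts per library, against 13 to 105 for Prtn3. Which cells the Ltf reads came from was not tested. Endothelial genes fell in 6 of 10. Marrow stroma genes fell in 2 of 6 and rose in 3, macrophage genes fell in 2 of 11 and rose in 1, sensory neuron genes fell in 3 of 7 and rose in 1, and muscle genes fell in 1 of 10. The 1 tooth gene tested did not pass. With GC content and length corrected, when 11% of all genes were lower and 11.1% higher, all 7 erythroid genes still fell. The lower counts under that correction were 4 of 15 for osteoclast, 6 of 16 for cartilage, 5 of 12 for fibroblast, 4 of 10 for granulocyte precursor, 3 of 10 for endothelial, 1 of 6 for marrow stroma and 1 of 10 for muscle genes, and 0 for macrophage, sensory neuron and tooth genes. The higher counts were 3 for marrow stroma and 3 for macrophage genes, 1 each for osteoclast, cartilage and sensory neuron genes, and 0 for the other lists in this paragraph. The share of any of these cells in the differences of the 10 bone genes was not tested.

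**Figure D5:**
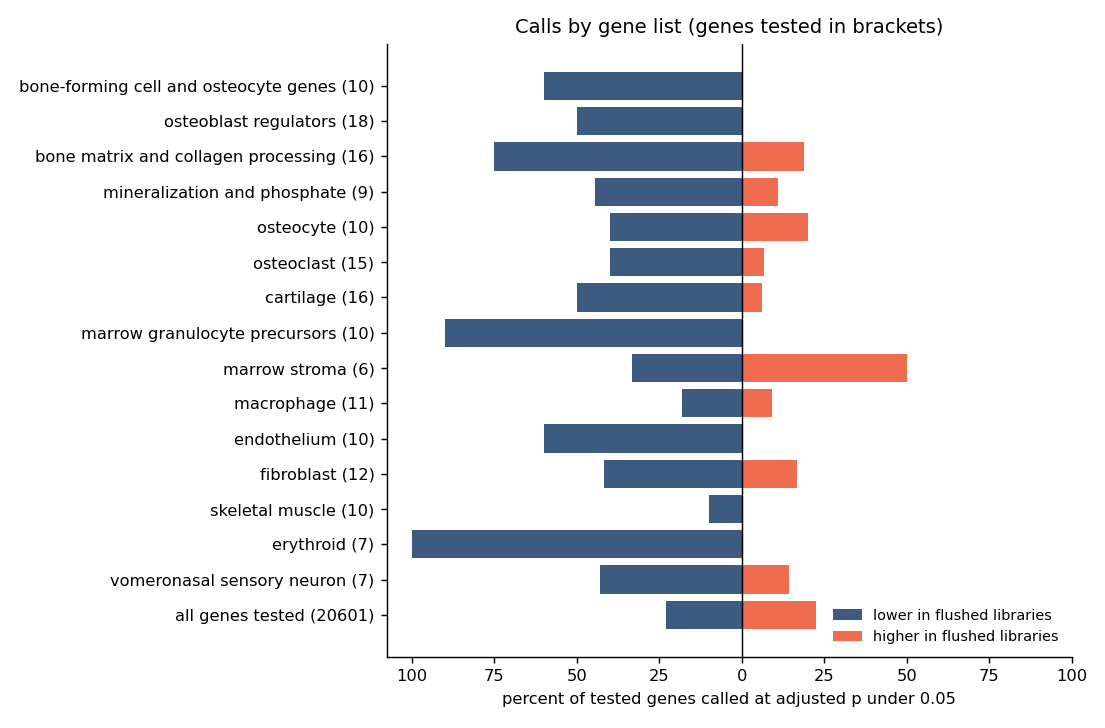
Percent of the tested genes of each list called lower (bars to the left) or higher (bars to the right) in flushed libraries at an edgeR adjusted p under 0.05, with the number tested in brackets. The bone genes show bars to the left only, with 6 of 10 called, against 22.9% lower and 22.6% higher over all 20601 genes.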

How the data were processed

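Libraries of polyA-selected RNA were read as stranded single ends of 100 bases, per the labels' protocols. The submitters' processing notes name GRCm38, STAR 2.7.1a for alignment and featureCounts 1.6.5 for counting. Expected counts of each gene were deposited, with a read of several alignments split among its genes and with exons and strand taken into account, per the file headers. The authors had not normalized them. Not whole were 10.16 to 11.79% of the genes of a library.

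Gene symbols came from GENCODE M21, for 48336 of 48831 genes. Counts were rounded and tested with edgeR 4.0.16 (R 4.3.3): TMM, filterByExpr over the 4 groups, sex and preparation as additive terms, and Benjamini-Hochberg adjustment over 20601 genes with a threshold of 0.05. CPM used unrounded counts. Ratios to Col1a1 used a pseudocount of 0.5 and the 70 assignments of 4 libraries against 4. Libraries of a group are separate mice or pools per the labels. The squared differences of their counts were 10.9 to 33.6 times those of counting noise (chi-square per degree of freedom). On simulated data, 91% of 100 genes with a log2 change of 1 and all 100 with a change of 2 were recovered among 20276 genes, with 5 false calls. Only these genes were changed there, up and down alike and with no tie to GC content. In the data 45.5% of genes were called and the difference followed GC content, so these rates may not carry over. DESeq2 1.42.0 and limma 3.58.1 (voom) were alternatives, with other scalings, filters, summed osteocalcin genes, a correction for GC content and length, and each library left out. The GC correction and the sum of Bglap and Bglap2 were added after the data had been seen.

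The 10 genes and the 15 lists were chosen with earlier results of these data known. Named besides the 10 were, per list, the 3 genes with the smallest p and, where 5 or fewer passed, all that passed, as well as the 5 genes most like the mean of the 10 on each of 2 measures. Mmp13, Ptprz1, Ltf and Dcn, among others, were named outside this rule. RefSeq promoters were at hand for 8 of the 10 genes, all but Bglap2 and Sp7. The values of 1 gene that the rule for named genes picks are not reported here.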

Additional observations from a re-analysis of the deposited data

Results flagged for a closer look

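None of the 10 bone genes was flagged. A library standing apart from the other 3 of its preparation was looked for in 116 groups over 58 of the named genes, and chance alone flags about 1 in 20 such groups. It was found in 5 groups of other genes. Ogn had 76.3 CPM in male pool 2, against 92.4 to 92.6 in the other pools. Camp, of granulocyte precursors, had 34.4 CPM in female pool 1, against 29.9 to 30.5. Ngp, of the same cells, had 18.8 CPM in flushed male 1, against 1.98 to 4.41 in the other flushed libraries. In flushed male 3, the library that was lowest for each of the 10 bone genes among the flushed ones, Ebf3 of marrow stroma had 76.8 CPM, against 63.1 to 64.7, and Mrc1 of macrophages had 55.4 CPM, against 60.2 to 60.7.

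The difference between preparations itself differed between the sexes, by edgeR's interaction test, for 3 of the named erythroid genes. The interaction, male minus female, was 2.13 on the log2 scale for Hbb-bs, 2.19 for Hbb-bt and 1.84 for Alas2.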

How the results depend on the processing

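The count of lower bone genes was 4 to 7 and that of higher ones 0 under every alternative run; the 4 and the 5 with osteocalcin genes summed come from fewer features. Dmp1, Alpl, Bglap, Bglap2 and Mepe were called lower in every alternative that kept them as features. Over all genes, 4721 lower calls became 2862 with plain library sizes, 1362 with factors from neuron markers and 2246 with GC content and length corrected, and 4656 higher calls became 2267 with that correction. The median log2 difference of all genes moved from -0.02 to 0.10 with plain library sizes and 0.20 with neuron-marker factors. Bone genes differing by sex went from 0 to 4 with no filter; the cause was not tested. Signs turned for some genes, of which Csf1r, Mrc1, Cldn5 and Ncam1 were called with TMM. Phex was 0.000302 with DESeq2, 0.000286 with RLE factors, 0.108 with plain sizes, 0.00363 without receptor genes in TMM, 0.207 with neuron-marker factors, 0.0238 with no filter, 0.00448 with a minimum of 1 CPM, and -0.0988 to 0.0821 with libraries left out. Neuron-marker factors gave 0.00163 for Sost, 0.0616 for Spp1 and 0.0611 for Ncam1. The GC correction gave -0.0854 for Ibsp, 0.144 for Sost, 0.000727 for Csf1r, -0.0781 for Mrc1 and 0.029 for Cldn5. With libraries left out, Ibsp ran from -0.0433 to 0.129 and Odam from -0.119 to 1.29. No paired analysis was possible because pools were numbered here only in listed order and numbers of flushed mice name separate animals. Depth limits Sost most, at 166 counts in its lowest library.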
